A study of Homo sapiens with 12 samples.

Results

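The genes described here are the collagens and the proteins that modify, fold, cut or cross-link them, measured in Sk-hep1 cells. They were taken by name: every gene called COL, a number, A and a number, together with LOX, LOXL1 to LOXL4, P4HA1 to P4HA3, PLOD1 to PLOD3, SERPINH1 and PCOLCE. The array had probe sets for 56 of them, 43 collagens and 13 modifying genes. A gene was tested if its brightest probe set reached log2 4 or more on at least 3 of the 12 arrays. That kept 35 members, 23 collagens and 12 modifying genes, among 13130 of the 19775 genes on the array.

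Collagens are made of 3 chains wound into a triple helix. In the endoplasmic reticulum, prolyl 4-hydroxylases (P4HA subunits) hydroxylate prolines, which stabilises the helix, and lysyl hydroxylases (PLOD enzymes) hydroxylate lysines, which prepares cross-links. SERPINH1 (HSP47) is the chaperone that binds the folded helix, PCOLCE enhances the removal of the C-terminal propeptide outside the cell, and the lysyl oxidases (LOX and LOXL enzymes) start the cross-links between molecules. In the liver, collagen IV belongs to basement membranes and the sinusoid wall, and fibrillar collagens I and III are the collagens that build up in scar tissue.

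Sk-hep1 is an established human liver cell line, labelled as an endothelial-type adenocarcinoma from ascites. Total RNA was measured on 12 arrays, 3 per group: a high-fat medium on a DMEM/F12 base (HFM) and a growth medium on a DMEM base (GM), each for 12 or 24 hours, after culture of all cells in DMEM with serum, antibiotics and glutamine. The labels do not name the fat, and the basal media differ, so a change below belongs to the medium as a whole. Nor do they say that the 3 replicates came from separate cultures, so the p-values refer to the spread between these arrays, which may be technical.

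The cells did not carry most of the marker set that the label would imply: 7 of 10 endothelial markers, CDH5, VWF, KDR, TEK, TIE1, ERG and CLDN5, did not pass the filter. The other 3, PECAM1, ROBO4 and ICAM2, passed it. Here and below, the summed level is the log2 of the sum over all named markers of a list, tested or not. Over the 10 endothelial markers it was 7.26 to 7.42 in HFM and 8.11 to 8.16 in GM at 12 hours. At 24 hours it was 7.13 to 7.35 in HFM and 7.65 to 7.78 in GM. Of 9 fibroblast and stellate cell markers, 6 were tested. The summed level of all 9 was 10.31 to 10.44 in HFM and 10.10 to 10.15 in GM at 12 hours. At 24 hours it was 10.55 to 10.59 in HFM and 10.42 to 10.44 in GM. THY1, a surface marker of that list, was lower in HFM at 24 hours by a log2 change of -0.58, and RGS5, a pericyte marker, was higher by 0.39. Of the hepatocyte, leukocyte and epithelial lists, 4 of 7, 2 of 5 and 3 of 6 named markers were tested, with ALB, PTPRC, EPCAM and CDH1 below the filter. The 3 tested epithelial markers, the keratins KRT18, KRT8 and KRT19, were bright. The summed level of all 6 epithelial markers was 14.22 to 14.39 in HFM and 14.47 to 14.52 in GM at 12 hours. At 24 hours it was 13.95 to 14.03 in HFM and 14.12 to 14.19 in GM. KRT19 was lower in HFM by -0.24 at 24 and -0.70 at 12 hours, and KRT18 by -0.26 and -0.13. KRT8 had 0.04 at 24 hours, which was not called, and -0.16 at 12 hours. The summed hepatocyte level was 7.18 to 7.24 in HFM and 7.32 to 7.35 in GM at 12 hours, and 7.32 to 7.35 in HFM and 7.14 to 7.18 in GM at 24 hours, where SERPINA1 was higher in HFM by 0.54. The summed leukocyte level was 6.72 to 6.996 in HFM and 7.25 to 7.36 in GM at 12 hours, and 6.77 to 6.87 in HFM and 6.83 to 6.95 in GM at 24 hours. CD14 was lower in HFM by -0.39 at 24 and -0.78 at 12 hours. The other tested leukocyte marker had 0.0005 at 24 hours, which was not called, and -0.39 at 12 hours. The 3' minus 5' difference of ACTB, a control of RNA integrity, was 1.53 to 1.64 in HFM and 1.02 to 1.12 in GM at 24 hours, and 0.69 to 0.92 in HFM and 0.86 to 0.91 in GM at 12 hours. Spiked hybridisation controls were higher on 4 arrays, the 3 GM arrays and HFM replicate 1 at 12 hours, than on the other 8. Only HFM at 12 hours held arrays with both higher and lower controls. A model term for this control class is therefore set by its replicate 1 against its replicates 2 and 3. With that term, a 12-hour change is HFM replicate 1 alone set against the GM arrays. HFM replicate 1 stood apart from its group for several members, so its effect is given where a result rests on it. The part of these differences in the results below was not tested.

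After 24 hours in HFM, P4HA1, P4HA2, PLOD2, PLOD3, LOX and LOXL2, which hydroxylate and cross-link collagen, were higher than in GM, as were COL4A1, COL4A2, the tested collagen VI chains, COL12A1 and COL18A1. COL5A2 and PCOLCE were lower. Among the modifying genes 7 of 12 were called higher and 1 lower, and among the collagens 10 of 23 were higher and 2 lower. Called means an adjusted p under 0.05 in limma, with Benjamini-Hochberg adjustment over all genes tested. Of all genes tested, 58.1% were called at 24 hours, 20.6% higher and 37.5% lower, so both groups held a larger share of higher calls and a smaller share of lower calls than the array as a whole. The arrays of the media did not overlap for 8 modifying genes that were higher and 1 that was lower, and for 11 collagens that were higher and 3 that were lower, against 68.7% of all genes, 25.7% higher and 43.0% lower. The median log2 change was 0.51 over the modifying genes, 0.16 over the collagens and -0.08 over all genes. At 12 hours the picture was mixed: 3 modifying genes were higher and 4 lower, and 7 collagens were higher and 5 lower, where all genes had 61.9% called, 28.9% higher and 33.0% lower. At that time the arrays did not overlap for 4 modifying genes that were higher and 4 that were lower, and for 7 collagens that were higher and 4 that were lower, against 63.6% of all genes, 30.4% higher and 33.2% lower. The medians at 12 hours were -0.13 over the modifying genes, 0.02 over the collagens and -0.07 over all genes. Whether the modifying genes and the collagens differ from each other as groups was not tested. Each array was also centred on the median of its tested genes. This moved the median of all genes at 24 hours to 0.10. It turned the split of all calls to 4852 higher and 3434 lower, where the deposited scale gave 2700 and 4923. The members then had 8 modifying genes and 12 collagens higher and 1 of each lower. In RNA from whole cultures, fewer cells that express a gene and less RNA per cell cannot be told apart.

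**Figure D1:**
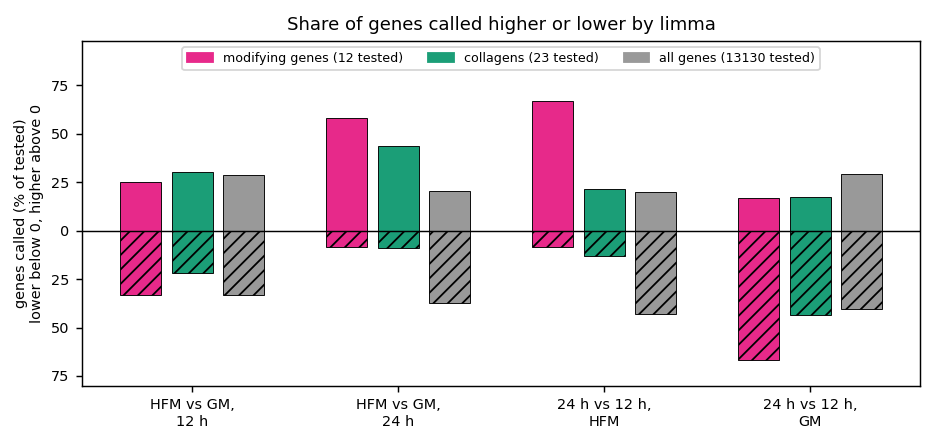
Share of tested genes called higher (above 0) and lower (below 0, hatched) by limma, in percent, for the modifying genes (12 tested), the collagens (23 tested) and all genes (13130 tested), in 4 comparisons. In HFM against GM at 24 hours the higher share was 58.3% of modifying genes, 43.5% of collagens and 20.6% of all genes.

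The 4 groups can be read array by array. For each array, the median over the members of the deviation from a member's mean over the 12 arrays was taken. Over the modifying genes it was 0.30, 0.36 and 0.18 on the HFM arrays and -0.20, -0.19 and -0.33 on the GM arrays at 24 hours. At 12 hours it was 0.05, -0.09 and -0.14 on the HFM arrays and -0.06, 0.05 and 0.12 on the GM arrays, which overlap. Over the collagens it was 0.07, 0.11 and 0.05 in HFM and -0.12, -0.12 and -0.16 in GM at 24 hours, and 0.18, -0.01 and 0.05 in HFM and 0.06, 0.00 and 0.02 in GM at 12 hours. In both groups of genes the arrays did not overlap between media at 24 hours, and the spread of the modifying genes was the wider. By group mean, HFM at 24 hours was the highest of the 4 groups for 6 modifying genes and 9 collagens, and GM at 12 hours was the highest for the other 6 modifying genes and for 7 collagens. GM at 24 hours was the lowest for 5 modifying genes and 11 collagens. The order of the groups was not counted over all genes, of which 40.5% were called lower over time in GM. Whether it sets the members apart was not tested.

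Both tested subunits of proline hydroxylation were higher in HFM at 24 hours, and P4HA1 had the largest change of the modifying genes. P4HA1, the catalytic subunit of the widely expressed prolyl 4-hydroxylase (chr10:73007217-73096866, GRCh38.p14), had log2 levels of 10.76, 10.76 and 10.69 in HFM and 9.01, 9.03 and 9.08 in GM at 24 hours. At 12 hours it had 9.67, 9.55 and 9.55 in HFM and 8.54, 8.52 and 8.40 in GM. The HFM arrays were above the GM arrays at both times, and both media were higher at 24 than at 12 hours. The log2 change was 1.70 ± 0.06 (SE, n = 3 arrays per group, a fold of 3.25) at 24 hours (adjusted p = 5.1e-10) and 1.10 ± 0.06 at 12 hours (adjusted p = 5.4e-08). P4HA2, the second catalytic subunit, had 10.32, 10.25 and 10.22 in HFM and 9.18, 9.18 and 9.14 in GM at 24 hours, a log2 change of 1.09 ± 0.07 (adjusted p = 8.7e-08). At 12 hours it had 9.79, 9.53 and 9.52 in HFM and 9.50, 9.43 and 9.41 in GM. Those arrays did not overlap, but the change of 0.17 ± 0.07 was not called (adjusted p = 0.058). It was called at 0.21 without HFM replicate 2 or 3. With the control class in the model it was 0.34, from HFM replicate 1 alone. The other tested probe set of P4HA2 was higher in HFM by 1.34 at 24 and by 0.61 at 12 hours. P4HA3, the remaining subunit, reached log2 4 on 2 arrays and was not tested.

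Of the lysyl hydroxylases, PLOD2, which hydroxylates the telopeptide lysines used for stable cross-links, and PLOD3, which is also a glucosyltransferase, were higher in HFM at 24 hours. PLOD2 (chr3:146069440-146161184) had 11.94, 12.00 and 12.05 in HFM and 11.05, 11.05 and 11.27 in GM at 24 hours, a log2 change of 0.88 ± 0.13 (adjusted p = 9.0e-05). At 12 hours it had 10.76, 11.29 and 11.36 in HFM and 10.67, 10.60 and 10.58 in GM. There HFM replicate 1 was close to the GM arrays and the other HFM arrays well above them, and the change was 0.52 ± 0.13 with it (adjusted p = 0.0044) and 0.71 without it. It was 0.14 and not called once the class of the hybridisation controls was a term in the model. There HFM at 12 hours is set against GM through the 1 array it has in the higher class. The other tested probe set of PLOD2 was called higher in HFM at both times, by 0.87 at 12 and 0.90 at 24 hours. Its difference between the times, 0.02, was not called. PLOD3 had 9.48, 9.48 and 9.33 in HFM and 8.94, 8.86 and 8.73 in GM at 24 hours, a change of 0.59 ± 0.08 (adjusted p = 7.7e-05). Its levels at 12 hours were 9.22, 8.96 and 8.94 in HFM and 9.03, 9.13 and 9.16 in GM, and the arrays overlapped. PLOD1, which hydroxylates lysines within the helix, was lower in HFM at 12 hours by -0.23 ± 0.08 (adjusted p = 0.019), a call lost without HFM replicate 2 (-0.22), HFM replicate 3 (-0.16) or GM replicate 3 (-0.18), and with the control class in the model (-0.07). At 24 hours its change of 0.18 ± 0.08 was not called (adjusted p = 0.054), although its arrays did not overlap, and with the same change it was called without HFM replicate 1 or 3 of 12 hours.

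The sequence before the annotated start is shown for the 3 hydroxylase genes with the largest called changes at 24 hours, since these enzymes act on the same chains in the endoplasmic reticulum, and, further on, for the collagen IV pair that shares 1 start region. Each is read 5' to 3' along the gene and comes from RefSeq, build GRCh38.p14: P4HA1 at chr10:73096867-73097116, P4HA2 at chr5:132227092-132227341 and PLOD2 at chr3:146161185-146161434, all on the minus strand. The P4HA2 window lies before a start inside the annotated span of the gene. Capitals mark CCAAT and the core letters that hypoxia-inducible factors are known to bind, which are ACGTG with its variant GCGTG. Both strands were searched, so that ATTGG is CCAAT on the opposite strand, CACGT stands for the first core and a reversed second core reads CACGC.
P4HA1: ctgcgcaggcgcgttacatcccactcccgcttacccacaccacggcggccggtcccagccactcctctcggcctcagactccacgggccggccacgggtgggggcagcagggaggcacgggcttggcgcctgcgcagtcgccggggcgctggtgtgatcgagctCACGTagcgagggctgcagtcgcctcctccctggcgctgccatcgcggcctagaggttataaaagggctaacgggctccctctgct
P4HA2: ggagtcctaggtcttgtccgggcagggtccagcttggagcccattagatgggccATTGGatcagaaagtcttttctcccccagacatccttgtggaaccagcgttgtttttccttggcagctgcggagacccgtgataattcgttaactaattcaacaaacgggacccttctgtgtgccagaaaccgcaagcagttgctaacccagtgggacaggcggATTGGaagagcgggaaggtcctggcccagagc
PLOD2: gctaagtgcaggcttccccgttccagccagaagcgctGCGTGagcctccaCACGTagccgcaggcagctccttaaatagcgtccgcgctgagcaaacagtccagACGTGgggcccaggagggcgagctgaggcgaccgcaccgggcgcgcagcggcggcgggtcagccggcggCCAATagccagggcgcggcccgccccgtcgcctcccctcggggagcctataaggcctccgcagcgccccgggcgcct

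The core letters occurred in P4HA1 at 1 place, 86 bases before the start, in PLOD2 at 3 places, 146, 200 and 213 bases before it, and in the P4HA2 window at 0 places. P4HA2 held CCAAT at 2 places on the opposite strand, and PLOD2 held it at 1 place, 77 bases before the start. These letters are frequent: windows of 300 bases (250 before and 50 after the start) held the core in 48.4% of 35116 promoter windows, and CCAAT in 34.6%. An E-box, CACGTG, contains the core on both strands. Of 35 tested members 28 had a window, and 16 of them held the core in at least 1 window, 57.1%, where 52.4% of all genes did. Among members with a window, the core was present in 4 of 6 modifying genes called higher at 24 hours and in 3 of 5 of the others, and in 4 of 9 collagens called higher and 5 of 8 of the others. CCAAT was present in 4 of 6 and 0 of 5 modifying genes and in 3 of 9 and 3 of 8 collagens, in the same order. Counted in any window of a gene, it was present in 10 of the 28 members, 35.7%, and in 39.7% of all genes. These counts were not tested. A match is a run of letters and not a binding site.

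**Figure D2:**
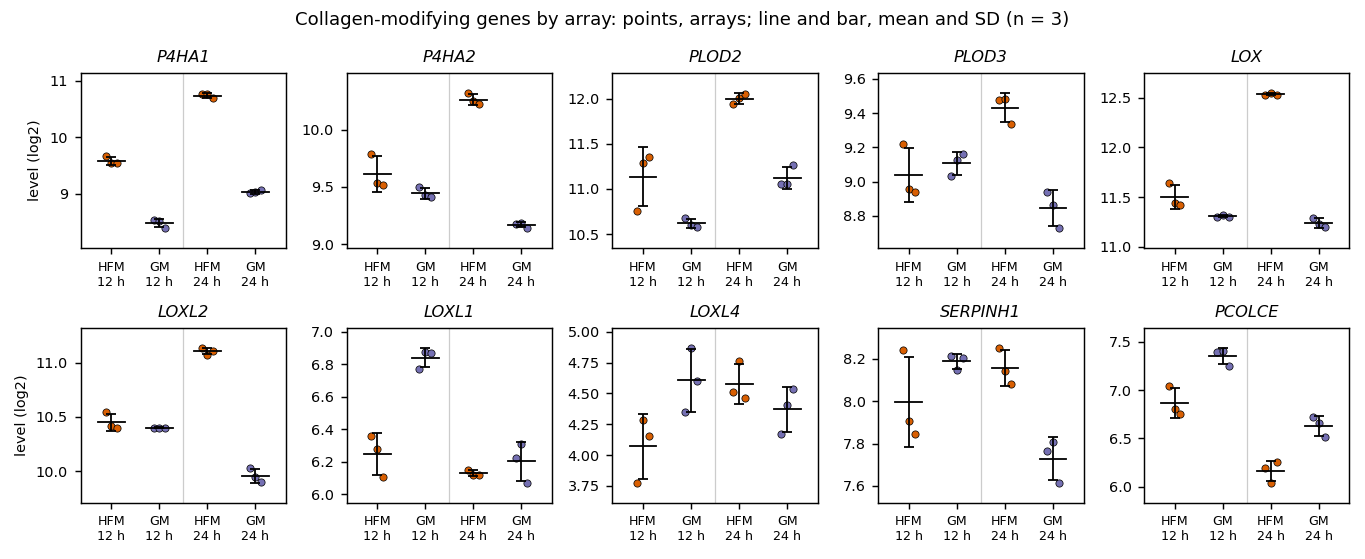
Log2 level of 10 modifying genes on each array (points), with the mean and SD of each group (line and bar, n = 3). P4HA1, P4HA2, PLOD2, PLOD3, LOX, LOXL2 and SERPINH1 lay higher on all 3 HFM arrays than on all 3 GM arrays at 24 hours, and PCOLCE lay lower.

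Among the lysyl oxidases, LOX and LOXL2 were higher in HFM at 24 hours, and LOXL1, LOXL3 and LOXL4 were not called. LOX (chr5:122063195-122078259), the founding member of the family, had 12.53, 12.54 and 12.53 in HFM and 11.29, 11.22 and 11.20 in GM at 24 hours. The 12-hour levels were 11.64, 11.44 and 11.42 in HFM and 11.30, 11.32 and 11.30 in GM. The arrays did not overlap at either time, and the log2 change was 1.29 ± 0.06 at 24 hours (a fold of 2.45, adjusted p = 5.2e-09) and 0.19 ± 0.06 at 12 hours (adjusted p = 0.014). LOXL2, which acts on collagen IV among other substrates, had 11.13, 11.07 and 11.11 in HFM and 10.03, 9.95 and 9.90 in GM at 24 hours, a change of 1.14 ± 0.05 (adjusted p = 6.4e-09). The levels at 12 hours were 10.54, 10.41 and 10.40 in HFM and 10.40, 10.39 and 10.40 in GM, a change of 0.05 ± 0.05 that was not called. With the control class in the model it was 0.14, from HFM replicate 1 alone. With only the groups compared in the fit, the 12-hour call of LOX was lost (adjusted p = 0.063). The other tested probe set of LOXL2, with a mean level of 4.96, was called higher at 24 hours by a smaller change of 0.38.

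LOXL1, which is known for its role in elastic fibres, went the other way at 12 hours. It had 6.36, 6.28 and 6.10 in HFM and 6.77, 6.88 and 6.87 in GM, a change of -0.59 ± 0.08 (adjusted p = 4.3e-05). At 24 hours it had 6.15, 6.12 and 6.12 in HFM and 6.22, 6.31 and 6.07 in GM, and the arrays overlapped. LOXL4 was dim, with 3.78, 4.28 and 4.16 in HFM and 4.35, 4.87 and 4.60 in GM at 12 hours, a change of -0.53 ± 0.16 (adjusted p = 0.011, and 0.051 with a change of -0.40 without GM replicate 2). At 24 hours it had 4.51, 4.76 and 4.46 in HFM and 4.17, 4.40 and 4.54 in GM. The other tested probe set of LOXL4 was called at neither time, with -0.32 at 12 and 0.12 at 24 hours. LOXL3 had changes of -0.17 at 24 and -0.27 at 12 hours, neither of them called.

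SERPINH1 and PCOLCE moved apart at 24 hours. SERPINH1 had 8.25, 8.14 and 8.08 in HFM and 7.76, 7.81 and 7.62 in GM, a change of 0.43 ± 0.10 (adjusted p = 0.0020). At 12 hours it had 8.24, 7.91 and 7.85 in HFM and 8.21, 8.15 and 8.20 in GM, a change of -0.19 that was not called with all arrays and was called at -0.31 without HFM replicate 1 (adjusted p = 0.0017). PCOLCE had 6.19, 6.04 and 6.25 in HFM and 6.72, 6.66 and 6.51 in GM at 24 hours, and 7.05, 6.81 and 6.76 in HFM and 7.40, 7.40 and 7.25 in GM at 12 hours. Its HFM arrays were below the GM arrays at both times, by -0.47 ± 0.09 (adjusted p = 0.00066) and -0.48 ± 0.09 (adjusted p = 0.00066).

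Of the collagens, the common basement membrane chains had the largest rises at 24 hours. COL4A1 and COL4A2, which join in the common collagen IV molecule, lie head to head on chromosome 13 (chr13:110148963-110307157 and chr13:110307284-110513209), with 126 bases between their starts. This shared stretch, chr13:110307158-110307283, is shown on the plus strand, the direction of COL4A2, because both genes start from it. The capitals are its CCAAT, and it has 0 copies of the core letters.
COL4A1-COL4A2: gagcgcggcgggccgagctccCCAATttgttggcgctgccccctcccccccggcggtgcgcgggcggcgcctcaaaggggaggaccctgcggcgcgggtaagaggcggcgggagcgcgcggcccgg

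COL4A1 had 9.77, 9.79 and 9.77 in HFM and 8.65, 8.74 and 8.76 in GM at 24 hours, and 9.45, 9.40 and 9.41 in HFM and 8.80, 8.80 and 8.76 in GM at 12 hours. COL4A2 had 10.31, 10.24 and 10.35 in HFM and 9.30, 9.25 and 9.27 in GM at 24 hours, and 10.10, 9.91 and 9.89 in HFM and 9.81, 9.83 and 9.82 in GM at 12 hours. For both genes the HFM arrays were above the GM arrays at both times, but at 12 hours by a different distance. At 24 hours the log2 changes were 1.05 ± 0.05 (adjusted p = 4.0e-09) for COL4A1 and 1.03 ± 0.06 (adjusted p = 3.6e-08) for COL4A2. At 12 hours they were 0.63 ± 0.05 (adjusted p = 6.2e-07) and 0.15 ± 0.06 (adjusted p = 0.045). The COL4A2 call at 12 hours was weak: it was lost without any 1 array other than HFM replicates 2 and 3 of 12 hours, with a change of 0.08 without HFM replicate 1, and after a further quantile normalisation (0.09). The second tested probe set of COL4A2 was called higher at 12 hours, by 0.33 (adjusted p = 0.011 in a fit over all tested probe sets), and that of COL4A1 by 0.61.

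The brighter probe sets of the pair were also set against each other within each array, as COL4A1 minus COL4A2, a description of the changes above that was chosen after they were seen. At 12 hours this difference was -0.64, -0.52 and -0.48 in HFM and -1.01, -1.03 and -1.06 in GM. It did not overlap between media, and the means differed by 0.49. At 24 hours it was -0.54, -0.45 and -0.58 in HFM and -0.64, -0.50 and -0.50 in GM, which overlap, and the means differed by 0.02. The second COL4A2 probe set gives a smaller gap at 12 hours, as its values above show. The GM arrays of COL4A2 were lower at 24 than at 12 hours by -0.55 ± 0.06 (adjusted p = 8.1e-06), and those of COL4A1 by -0.07 ± 0.05, which was not called. The second tested probe set of COL4A1 was called lower over time in GM, by -0.26, and that of COL4A2 by -0.59. COL4A1 was also called lower there with the mean of its probe sets (-0.16) and after a further quantile normalisation (-0.10).

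COL4A6 and COL4A5, the other collagen IV pair, start 379 bases apart on the X chromosome and at 24 hours 1 of them was called. COL4A6 had 9.15, 9.09 and 9.05 in HFM and 8.51, 8.53 and 8.56 in GM at 24 hours, a change of 0.56 ± 0.05 (adjusted p = 1.6e-06). The 12-hour levels were 8.78, 8.68 and 8.66 in HFM and 8.67, 8.68 and 8.74 in GM, which overlap. Its probe sets disagreed: another one was called lower in HFM at 24 hours, at -0.26, in a fit over all tested probe sets, and with the mean of the probe sets the change was 0.15 and not called (adjusted p = 0.051). COL4A5 had changes of -0.14 ± 0.08 at 24 and 0.15 ± 0.08 at 12 hours, neither of them called with all arrays (0.24 and called at 12 hours without HFM replicate 1). It was higher at 24 than at 12 hours by 0.73 in HFM and by 1.01 in GM. COL8A1, a short-chain network collagen of vessel walls, had 5.89, 5.82 and 5.94 in HFM and 4.78, 4.75 and 4.68 in GM at 12 hours, a change of 1.14 ± 0.08 (adjusted p = 3.7e-07). At 24 hours it had 4.82, 4.62 and 4.98 in HFM and 4.96, 4.93 and 4.98 in GM, where the arrays overlapped and the change was not called, at -0.15 ± 0.08 (adjusted p = 0.12, with -0.24 and a call without HFM replicate 3).

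**Figure D3:**
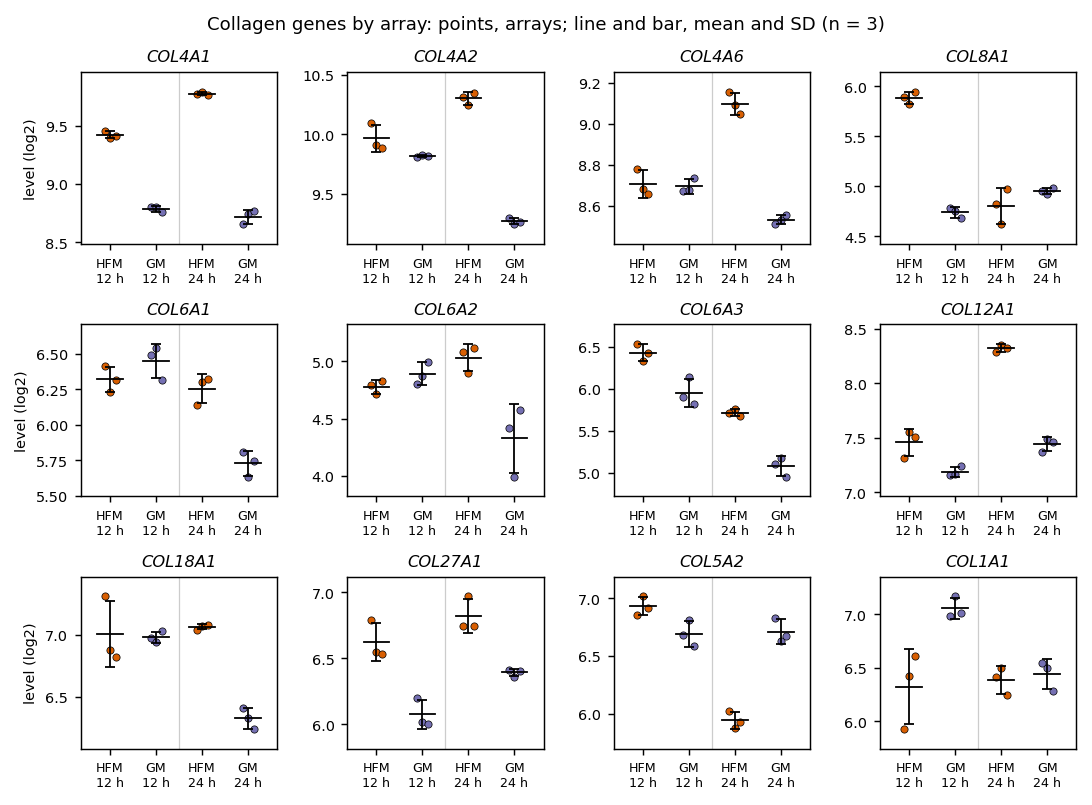
Log2 level of 12 collagen genes on each array (points), with the mean and SD of each group (line and bar, n = 3). COL4A1, COL4A2 and COL12A1 lay higher on the HFM arrays than on the GM arrays at both times, COL8A1 at 12 hours, and COL5A2 lay lower on the HFM arrays at 24 hours.

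Collagen VI forms beaded filaments next to basement membranes, and its 3 tested chains were all called higher in HFM at 24 hours, as were 20.6% of all genes. COL6A1 had 6.14, 6.30 and 6.32 in HFM and 5.81, 5.63 and 5.74 in GM at 24 hours (change 0.53 ± 0.08, adjusted p = 0.00011), and 6.41, 6.23 and 6.32 in HFM and 6.49, 6.54 and 6.31 in GM at 12 hours. COL6A2 had 5.08, 4.90 and 5.12 in HFM and 4.42, 3.99 and 4.57 in GM at 24 hours (change 0.70 ± 0.12, adjusted p = 0.00036), and 4.79, 4.71 and 4.83 in HFM and 4.81, 4.87 and 5.00 in GM at 12 hours. For both chains the HFM arrays at 24 hours lay near those of either medium at 12 hours, and the GM arrays at 24 hours lay below. COL6A3 had 5.71, 5.76 and 5.68 in HFM and 5.10, 5.18 and 4.95 in GM at 24 hours, and 6.53, 6.33 and 6.43 in HFM and 5.90, 6.14 and 5.81 in GM at 12 hours. It was higher in HFM at both times, by 0.64 ± 0.09 (adjusted p = 5.2e-05) and 0.48 ± 0.09 (adjusted p = 0.00060), and lower at 24 than at 12 hours in both media. The second tested probe sets of COL6A1 and COL6A2 were not called at 24 hours, at -0.05 and 0.18, and were called lower in HFM at 12 hours, at -0.47 and -0.41.

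COL12A1, which decorates the surface of collagen I fibrils, was higher at both times. It had 8.29, 8.35 and 8.33 in HFM and 7.37, 7.49 and 7.46 in GM at 24 hours (change 0.88 ± 0.07, adjusted p = 2.8e-07), and 7.31, 7.55 and 7.51 in HFM and 7.16, 7.16 and 7.23 in GM at 12 hours (change 0.27 ± 0.07, adjusted p = 0.0037). The 12-hour call was lost after a further quantile normalisation (0.18) and with the control class in the model (0.13). COL18A1, the basement membrane collagen whose C-terminal fragment is endostatin, had 7.04, 7.07 and 7.08 in HFM and 6.41, 6.33 and 6.24 in GM at 24 hours, a change of 0.74 ± 0.10 (adjusted p = 6.9e-05). The levels at 12 hours were 7.31, 6.88 and 6.82 in HFM and 6.97, 6.94 and 7.03 in GM. HFM replicate 1 alone lay above the GM arrays, and the change of 0.02 became -0.13 without it (adjusted p = 0.046). With the control class in the model the change was 0.33, which is that replicate alone set against GM. COL13A1, a transmembrane collagen of cell adhesion sites, was higher in HFM at 24 hours by 0.31 ± 0.05 (adjusted p = 0.00037), with -0.02 at 12 hours. COL23A1, another transmembrane collagen, was dim and was called lower at both times, at -0.34 (adjusted p = 0.021) and -0.31 (adjusted p = 0.029). The call at 24 hours was lost without GM replicate 1 (-0.29), HFM replicate 2 (-0.32) or HFM replicate 3 (-0.33), and when arrays were centred (-0.16). The call at 12 hours was lost without GM replicate 1 (-0.18) or HFM replicate 1 (-0.22).

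Of 7 tested fibrillar collagens, 1 was called higher and 1 lower at 24 hours (20.6% and 37.5% of all genes), with a median change of 0.03. At 12 hours 2 were higher and 2 lower, 28.6% each, near the 28.9% and 33.0% of all genes. COL5A2, a chain of the collagen V that starts fibrils (chr2:189031898-189441111), had 6.02, 5.88 and 5.93 in HFM and 6.83, 6.62 and 6.67 in GM at 24 hours, a change of -0.76 ± 0.08 (adjusted p = 3.8e-06). Its 12-hour levels were 6.86, 7.01 and 6.92 in HFM and 6.68, 6.81 and 6.58 in GM, where HFM was higher by 0.24 ± 0.08 (adjusted p = 0.018). That call at 12 hours was lost without HFM replicate 2 or GM replicate 3 (changes of 0.20 and 0.18), after a further quantile normalisation (0.12) and with the control class in the model (0.17), while both tested probe sets had the same signs. COL27A1, a fibrillar collagen of cartilage, had 6.75, 6.97 and 6.75 in HFM and 6.41, 6.36 and 6.40 in GM at 24 hours (change 0.43 ± 0.09, adjusted p = 0.0010), and 6.79, 6.55 and 6.53 in HFM and 6.20, 6.02 and 6.003 in GM at 12 hours (change 0.55 ± 0.09, adjusted p = 0.00021). Of its 3 other tested probe sets, 1 was called lower at 12 hours, at -0.26.

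Collagens I and III, the main scar collagens, were dim on these arrays or differed between probe sets. COL1A1 had 6.42, 6.50 and 6.25 in HFM and 6.54, 6.50 and 6.28 in GM at 24 hours, and 5.93, 6.43 and 6.61 in HFM and 6.99, 7.17 and 7.01 in GM at 12 hours. It was called lower in HFM at 12 hours, by -0.74 ± 0.15 (adjusted p = 0.0011), but another probe set was called higher there, at 0.35, and with the mean of its probe sets the change was -0.05 (adjusted p = 0.50). COL1A2, the partner chain, had 3.80, 4.00 and 3.75 in HFM and 3.61, 3.51 and 3.79 in GM at 24 hours, and 3.62, 3.86 and 3.59 in HFM and 3.71, 3.81 and 3.69 in GM at 12 hours, reached log2 4 on 1 array and was not tested. COL3A1 had 3.89, 4.08 and 3.91 in HFM and 3.62, 4.29 and 3.48 in GM at 24 hours, and 4.30, 3.97 and 3.89 in HFM and 3.69, 3.80 and 3.91 in GM at 12 hours. COL5A1 had 4.34, 3.61 and 4.20 in HFM and 3.93, 3.87 and 3.91 in GM at 24 hours, and 4.22, 3.99 and 4.11 in HFM and 4.17, 4.05 and 4.14 in GM at 12 hours. In neither COL3A1 nor COL5A1 was a change called with all arrays, and their arrays overlapped. At 24 hours COL3A1 was called at 0.41 without GM replicate 2, and COL5A1 at 0.37 without HFM replicate 2.

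The other 6 tested collagens had small changes. At 12 hours COL11A2 (-0.40), COL26A1 (-0.43) and COL22A1 (-0.21) were called lower in HFM, with adjusted p of 0.0056, 0.023 and 0.031 in that order. The call of COL26A1 was lost without GM replicate 1 (-0.33), and that of COL22A1 without GM replicate 3 (-0.15), HFM replicate 1 (-0.16) or HFM replicate 2 (-0.20). At 24 hours none of these 3 was called, with changes of -0.06, -0.18 and 0.17. COL16A1, COL5A3 and COL7A1 were called at neither time, with changes of 0.08, 0.03 and -0.05 at 24 hours and 0.18, -0.01 and 0.19 at 12 hours. A second probe set of COL7A1 was called higher at 24 hours, at 0.26. Levels of 9 members were below log2 4 on at least 1 array: COL16A1, COL23A1, COL26A1, COL3A1, COL5A1, COL5A3, COL6A2, LOXL3 and LOXL4. The other 26 members reached it on all 12 arrays, as did 88.3% of the genes tested. 0 members passed through arrays of 1 group alone. Just inside the threshold were COL3A1, with 3 arrays, and COL23A1, with 5, and just outside were COL9A1 and P4HA3, with 2 each, and COL1A2. The other 18 collagens left out, COL2A1, COL4A3, COL4A4, COL6A5, COL6A6, COL8A2, COL9A2, COL9A3, COL10A1, COL11A1, COL14A1, COL15A1, COL19A1, COL20A1, COL21A1, COL24A1, COL25A1 and COL28A1, reached it on 0 arrays.

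**Figure D4:**
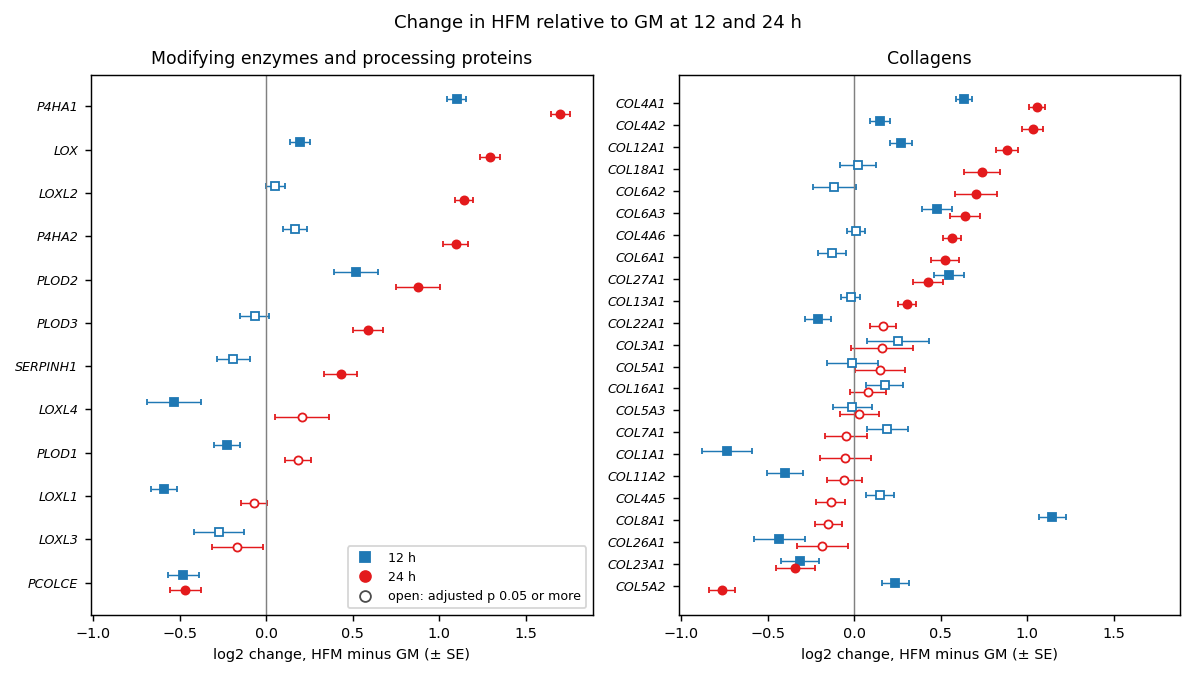
Log2 change in HFM relative to GM at 12 hours (squares) and 24 hours (circles) for the 12 modifying genes and 23 collagens tested, with the SE. Filled symbols have an adjusted p under 0.05. P4HA1 had the largest change at both times among the modifying genes, and COL8A1 was the collagen with the largest change at 12 hours.

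The signed log2 effect of HFM was more positive at 24 than at 12 hours for most modifying genes. Tested as the difference of both effects in 1 model, it was called higher for 9 of 12 modifying genes and 10 of 23 collagens, where 52.8% of all genes were called, 19.4% higher and 33.4% lower. The median difference was 0.61 over the modifying genes, 0.25 over the collagens and -0.04 over all genes. LOX (1.10 ± 0.08, adjusted p = 7.7e-07), LOXL2 (1.09 ± 0.08, adjusted p = 4.0e-07), P4HA2 (0.93) and COL4A2 (0.88) had the largest differences. The other tested probe set of LOXL2 had a difference of 0.31, which was not called. For 3 of the 9 modifying genes the positive difference came with an effect below 0 at 12 hours that was smaller in size and not called at 24 hours: LOXL1 (-0.07 at 24 and -0.59 at 12 hours), LOXL4 (0.21 and -0.53) and PLOD1 (0.18 and -0.23). With centred arrays the split of all genes turned to 5068 higher and 3134 lower, against 2551 and 4380 on the deposited scale, and 10 modifying genes and 12 collagens were called higher. PLOD2 (0.36, adjusted p = 0.12, and 0.47 with a call without HFM replicate 3 of 12 hours), LOXL3 (0.10) and PCOLCE (0.01) were not called. limma called 0 modifying genes lower, and none of their differences was below 0. The 2 collagens with a called fall were COL8A1, at -1.29 ± 0.11 (adjusted p = 2.0e-06), and COL5A2, at -1.003 ± 0.11 (adjusted p = 1.3e-05), whose change in HFM turned sign between the times.

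The levels were also compared over time in each medium. Between 12 and 24 hours in HFM, 8 modifying genes were called higher and 1 lower, where 63.1% of all genes were called, 20.1% higher and 43.1% lower. With centred arrays the split of all genes over time in HFM turned to 5133 higher and 3790 lower, against 2637 and 5653, and 9 modifying genes were higher and 1 lower. In GM, 2 were higher and 8 lower, where 69.9% of all genes were called, 29.4% higher and 40.5% lower. The collagens were 5 higher and 3 lower in HFM, and 4 higher and 10 lower in GM. The arrays of both times did not overlap in HFM for 7 modifying genes and 6 collagens that were higher and for 1 and 3 that were lower, against 65.9% of all genes, 21.1% higher and 44.8% lower. In GM they did not overlap for 2 and 4 that were higher and for 9 and 12 that were lower, against 78.9% of all genes, 33.0% higher and 45.8% lower. The comparisons of times and of media share arrays and are not independent, so they are set side by side gene by gene. LOX was higher at 24 than at 12 hours in HFM by 1.03 ± 0.06 (adjusted p = 3.8e-08) and had -0.07 in GM, which was not called. Of its other tested probe sets, 1 was higher over time in GM too, by 0.40 (adjusted p = 2.5e-05) beside 1.10 in HFM. LOXL2 was higher by 0.65 in HFM and lower by -0.44 in GM, and P4HA2 was higher by 0.65 in HFM and lower by -0.28 in GM. The other tested probe set of LOXL2 was called in neither medium, at 0.03 in HFM and -0.28 in GM. That of P4HA2 was higher by 0.75 in HFM and was not called in GM, at 0.02. P4HA1 was higher in both media, by 1.15 in HFM and 0.55 in GM, as was PLOD2, by 0.86 and 0.51. COL18A1, COL6A1 and SERPINH1 had small changes in HFM that were not called (0.06, -0.07 and 0.16) and were lower in GM by -0.65, -0.72 and -0.46. PCOLCE was lower in both media, by -0.71 in HFM and -0.72 in GM. Without HFM replicate 1 of 12 hours, the changes of COL18A1 and SERPINH1 in HFM were 0.21 and 0.28 and were called, and 8 collagens in place of 5 were called higher. All GM arrays of 12 hours were in the higher class of the hybridisation controls and those of 24 hours in the other. In GM the class and the time therefore cannot be told apart. With the class in the model the GM changes became -0.06 for PLOD2, -0.01 for P4HA2, -0.19 for COL18A1 and -0.09 for SERPINH1. They are shifted by the distance of HFM replicate 1 of 12 hours from its replicates 2 and 3, and are not a correction of the GM arrays.

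Several probe sets of 1 gene show whether a call rests on 1 of them. This agreement was counted for the members only, and 58.1% of all genes were called at 24 hours. Whether the members agreed more often than other genes was not tested. Of 20 members with more than 1 tested probe set, 10 had all of them called in the same direction at 24 hours: COL4A1, COL4A2, COL5A2, COL12A1, COL13A1, COL18A1, LOX, LOXL2, P4HA2 and PLOD2. COL4A6 was the 1 member called in both directions. At 12 hours 5 were called 1 way (COL4A1, COL5A2, COL11A2, LOX and PLOD2) and 2 both ways (COL1A1 and COL27A1). P4HA1, PLOD1, PLOD3, LOXL1, LOXL3, SERPINH1, PCOLCE and COL6A3 had 1 tested probe set each. So did COL3A1, COL4A5, COL5A1, COL8A1, COL16A1, COL22A1 and COL23A1, and results for these genes could not be checked in this way.

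**Figure D5:**
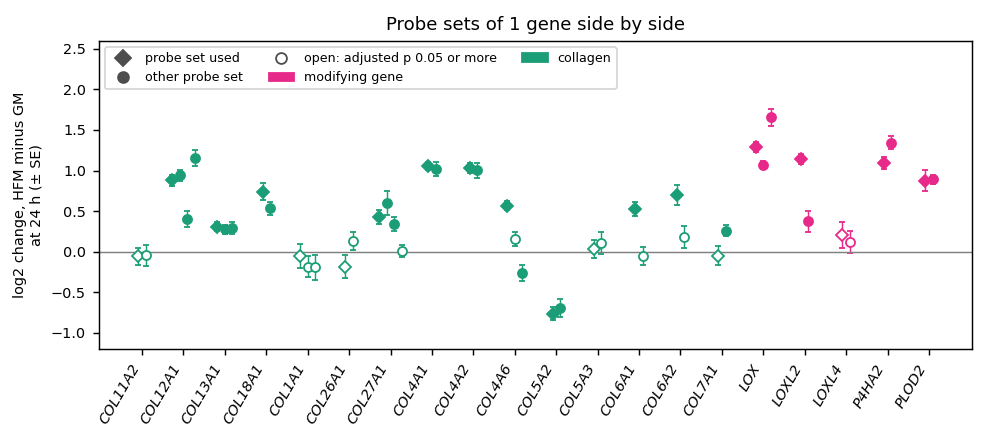
Log2 change in HFM relative to GM at 24 hours, with the SE, for each tested probe set of the 20 members that have more than 1. Diamonds mark the probe set used and circles the others, and filled symbols have an adjusted p under 0.05. All probe sets of LOX, P4HA2, COL4A1 and COL4A2 lie above 0.8, and those of COL4A6 lie on both sides of 0.

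Other genes of the collagen pathway were read from lists of partners. The share of all genes called was 20.6% higher and 37.5% lower at 24 hours and 28.9% and 33.0% at 12 hours. Of 14 tested genes of a list on folding and modification in the endoplasmic reticulum, 10 were called higher and 1 lower in HFM at 24 hours, with a median change of 0.38. The list also holds CREB3L1, a transcription factor (0.58 at 24 hours, 1 of the 10), and TMEM38B, an ion channel (-0.05, not called). HSPA5, a general chaperone of that compartment, had 1.53 (adjusted p = 1.7e-09), FKBP10, a prolyl isomerase that assists collagen folding, 0.85, and P3H3, a prolyl 3-hydroxylase family member, 0.68. At 12 hours the same list had 3 higher, 4 lower and a median of 0.01, with shares of 21.4% and 28.6%. Of 12 tested genes of procollagen export and propeptide removal, 4 were higher at 24 hours with a median of 0.16, led by MIA2 (0.54), an export receptor protein, and SEC31A (0.41), a coat protein of the vesicles that leave the endoplasmic reticulum. At 12 hours 3 were higher and 2 lower, with a median of -0.01. Of 7 tested genes of fibril assembly, 4 were higher at 24 hours with a median of 0.43, among them FBN1 (0.56), a microfibril protein, SPARC (0.51), a collagen-binding matrix protein, and BGN (0.43), a proteoglycan. At 12 hours 3 were higher and 1 lower, with a median of -0.04. Of 9 tested collagen receptors, 3 were higher and 2 lower with a median of 0.02: MRC2 (0.76), which takes up collagen, and ITGB1 (0.40), a shared integrin chain, were higher, and ITGA2 (-0.47), an integrin chain that binds collagen, was lower. At 12 hours 2 receptors were higher and 4 lower, with a median of -0.10.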

How the data were processed

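Expression was measured on Affymetrix human arrays with 54675 probe sets, 12 samples in 4 groups of 3. The authors deposited log2 levels from GCRMA, which corrects background and normalises across arrays, per the submitters' processing notes. No version or filter is named there. The precision is limited by the number of arrays.

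The platform annotation gave 1 symbol to 41097 probe sets, several to 1801 and none to 11777, and probe sets of the last 2 kinds stayed unnamed. Entrez identifiers of 41043 were found in RefSeq GRCh38.p14, which changed 0 symbols and also gave the promoter windows. A gene was read from its probe set with the highest mean and tested if that reached log2 4 on 3 arrays or more. limma 3.58.1 (R 4.3.3) fitted means of 4 groups to all arrays, with moderated variances and Benjamini-Hochberg adjustment over 13130 genes within each of 5 comparisons. Errors of changes are SE. The steps were tested on simulated data. Plots were made in Python 3.11.15 (matplotlib 3.10.9).

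The members and lists were chosen with earlier results of these data known. Array values are given for the 8 largest called changes of collagens and of modifying genes at 24 hours, for the 4 largest at 12 hours, and for COL1A1, COL1A2, COL3A1, COL4A1, COL4A2, COL5A1, COL5A2, COL6A1, COL6A2, COL6A3, LOX, P4HA1, PLOD2 and SERPINH1 whatever their values. Partner lists have up to 3 called members named. The within-array difference of COL4A1 and COL4A2 was looked at after their values were seen.

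Alternatives were 2 other filters, averaging all probe sets of 1 gene, leaving out probe sets that may cross-hybridise, median centring, quantile normalisation of the deposited values, a robust eBayes with an intensity trend, a fit to the 2 compared groups, a replicate block, the hybridisation control class as a term, a minimum change, and leaving out each array.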

Additional observations from a re-analysis of the deposited data

Results flagged for a closer look

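For 21 members the HFM effect differed between 24 and 12 hours, by an interaction term in limma with an adjusted p under 0.05, where 52.8% of all genes tested passed the same test. The values are the log2 effect of HFM at 24 hours minus that at 12 hours. Among the modifying genes these were LOX (1.10), LOXL2 (1.09), P4HA2 (0.93), LOXL4 (0.74), PLOD3 (0.65), SERPINH1 (0.62), P4HA1 (0.60), LOXL1 (0.52) and PLOD1 (0.41). Among the collagens they were COL4A2 (0.88), COL6A2 (0.82), COL18A1 (0.71), COL1A1 (0.68), COL6A1 (0.65), COL12A1 (0.61), COL4A6 (0.55), COL4A1 (0.42), COL22A1 (0.38), COL13A1 (0.33), COL5A2 (-1.003) and COL8A1 (-1.29). The effect itself was called in opposite directions at both times for COL5A2, with -0.76 at 24 and 0.24 at 12 hours. For LOXL1, LOXL4, PLOD1, COL1A1 and COL22A1 the difference came with a called fall at 12 hours and no call at 24 hours, and for COL8A1 with a called rise at 12 hours and no call at 24 hours. Of the 2 probe sets of COL1A1 that were called for this difference, 1 went the other way. Of 20 members with more than 1 tested probe set, 9 had all of them called in 1 direction for it. Other probe sets of COL4A6 (0.14 and -0.33), COL12A1 (-0.02), LOXL4 (0.44) and LOXL2 (0.31) were not called. With the mean of its probe sets the difference of COL4A6 was 0.12 and not called.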

How the results depend on the processing

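The largest rises at 24 hours, of P4HA1, LOX, LOXL2, P4HA2, COL4A1, COL4A2 and COL12A1, kept direction and call in the alternatives that tested these genes. Counts moved by over 1.5 times as follows, where the cause was not tested unless given. Without probe sets that can cross-hybridise, 7 modifying genes and 17 collagens were left to test. Modifying genes called higher were then 0 in place of 3 at 12 hours (P4HA1, LOX and PLOD2 were no longer tested), 2 in place of 7 at 24 hours, 5 in place of 9 for the difference, 0 in place of 2 over time in GM and 4 in place of 8 over time in HFM. Collagens were 6 in place of 10 higher for the difference and 5 in place of 10 lower over time in GM.

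At 12 hours, collagens called higher were 4 in place of 7 after quantile normalisation, and collagens called lower were 8 in place of 5 with no filter (43 tested), 1 with a log2 5 filter (13 tested) and 2 with only the compared groups. At 24 hours, collagens called lower were 1 in place of 2 with the log2 5 filter and with centring. With the mean of probe sets, collagens were 1 in place of 2 lower for the difference and 2 in place of 4 higher over time in GM, also 2 after quantile normalisation. Centring gave 10 in place of 5 collagens higher over time in HFM. The control class term rests on HFM replicate 1 of 12 hours against its replicates 2 and 3. Over time in HFM it is the same as leaving replicate 1 out, and in GM it does not separate class from time. With the control class term, counts over time in GM were 2 collagens higher and 6 lower (4 and 10) and 1 modifying gene higher and 5 lower (2 and 8). Over time in HFM, 8 collagens were higher (5) and 2 modifying genes lower (1). Lower calls in GM also fell over all genes with this term, with 3903 higher and 3486 lower (3860 and 5322). In HFM all genes had 2861 higher and 5597 lower (2637 and 5653).

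A minimum change of log2 0.5 gave, at 12 hours, 3 collagens higher, 1 lower and 2 modifying genes lower, at 24 hours 1 collagen and 0 modifying genes lower, and over time 1 collagen higher, 6 lower and 2 modifying genes lower in GM and 2 collagens higher in HFM. By construction it calls fewer genes.

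Directions turned for COL1A1 with the mean of probe sets (-0.067 for the difference and -0.28 over time in HFM). With the same setting that of COL4A6 turned over time in GM (0.021). With the control class term, set by HFM replicate 1 of 12 hours, those over time in GM turned for PLOD1 (0.035), PLOD2 (-0.059) and PLOD3 (0.011). Leaving out 1 array gave a 12-hour change of COL18A1 between -0.13 and 0.11, the first without HFM replicate 1. Collagens called lower ranged from 3 to 5 at 12 hours (3 without GM replicate 1) and from 1 to 2 at 24 hours (1 without GM replicate 1 or HFM replicate 2). Over time, modifying genes called lower in GM ranged from 5 to 8 (lowest without GM replicate 3 of either time), collagens called higher in HFM from 5 to 8 and modifying genes called lower in HFM from 1 to 2.

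With a replicate block, 11 collagens and 7 modifying genes were called higher at 24 hours and 7 and 4 at 12 hours, and no count moved by over 1.5 times in any of the 5 comparisons. The numbers were not taken as a pairing: of 18 pairs of arrays with the same number, 7 had deviations from their group means that correlated above 0.1 (r of -0.167 to 0.42). For dim members such as COL3A1 and COL5A1, a change that was not called is not shown to be absent.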
